A study of Mus musculus with 2 samples.

Results

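The Ms4a family encodes small proteins that cross the plasma membrane 4 times and sit in one cluster of neighbouring genes. Its 9 members described here (Ms4a1, Ms4a4a, Ms4a4b, Ms4a4c, Ms4a6b, Ms4a6c, Ms4a6d, Ms4a7 and Ms4a14) were taken by symbol from the 29417 genes of a single-cell expression table of mouse visceral fat. All 9 were found in the table, and 10 further Ms4a genes in it were not members. The members were selected on these same data, by their levels in its cell classes and hashtag populations, so their levels are a description and carry no test.

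Ms4a1 encodes CD20, the surface protein of B cells that therapeutic antibodies bind. Ms4a4b is best known from T cells, where its product acts together with the costimulatory receptor GITR. Ms4a4a is a macrophage gene whose product associates with the fungal receptor Dectin-1, and Ms4a7 is widely used as a macrophage marker. In fat, macrophages are abundant in the stromal vascular fraction (the cells left after the fat cells have floated off) and take on several states as fat expands.

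The cells came from epididymal white fat of male wild-type C57BL/6J mice fed either a standard diet (16 weeks) or a high-fat diet (8 weeks in some mice, 16 weeks in others). The fat was digested with Liberase, each suspension was stained with a barcoded hashtag antibody, and the suspensions were pooled into one BD Rhapsody run (a microwell system) with 20000 cells loaded. The pool gave 2 libraries, 1 of transcripts and 1 of hashtags, made with the TAS-Seq method. The 9 hashtag populations (A0301, A0302, A0303, A0304, A0305, A0307, A0308, A0309 and A0310) are not tied to a diet by any label, so no diet comparison is made and each population is given as a sample of unknown condition. How many mice stand behind a hashtag is not given in the sources used here.

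After filtering, 10286 of 12028 cells were kept, with a median of 36709 counts and 2763.5 genes per cell. Clusters were named by marker genes, with the Ms4a genes left out of the clustering, and a name here means "like" that cell type. The kept cells held 3531 macrophage-like, 81 monocyte-like, 164 type 2 and 115 type 1 conventional dendritic cell-like, 345 T cell-like, 143 regulatory T cell-like, 123 gamma-delta T cell-like, 76 natural killer (NK) cell-like, 86 group 2 innate lymphoid cell-like and 105 B cell-like cells. Smaller immune classes were mature dendritic cell-like (35), plasma cell-like (19) and neutrophil-like cells (10). Where classes are ranked for a member, the 10 immune classes of at least 50 cells are meant. Defining markers were high in their class: on the CPM scale (counts of a gene per 1000000 counts), Cd79a reached 2020 in B cell-like, Gzma 4311 in NK cell-like, Cd3d 512 in T cell-like, C1qb 1358 in macrophage-like and Plac8 991 in monocyte-like cells. The type 2 dendritic cluster also carried 7 of 12 monocyte markers. Its leading genes held Cd209a from its own list, and Siglech and Klk1 from the list of plasmacytoid dendritic cells, a name no cluster took. Whether it holds such cells was not tested. Clusters that carried markers of more than one lineage stayed unnamed (592 cells, 5.76%). Over these 10 classes, median counts per cell ran from 13091 in regulatory T cell-like to 63946 in macrophage-like cells, so levels are given as CPM of each class's summed counts. Intervals are exact 95% Poisson (levels) or Clopper-Pearson (shares) intervals; they cover counting error only, within 1 pool, and treat each count as independent.

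All 9 members lie within 355.175 kb of chromosome 19 (11249675 to 11604849, GRCm38, GENCODE M21). From the lower coordinate the order is Ms4a1, Ms4a14, Ms4a7, Ms4a4a, Ms4a4c, Ms4a4b, Ms4a6c, Ms4a6b and Ms4a6d. Ms4a4b (11443553 to 11467055) and Ms4a4c (11404770 to 11427246) are near copies on the plus strand, with 91.7% identity over 678 aligned coding bases. Ms4a6b (11516512 to 11531256) and Ms4a6c (11469366 to 11482192), also on the plus strand, share 86.4% over 641 coding bases. Ms4a6d (11586604 to 11604849, minus strand) is 81.8% identical to Ms4a6b and 79.6% to Ms4a6c. Identity is over aligned bases only, and does not show a near copy by itself: Ms4a14, with 3696 coding bases, gave 83.5% with Ms4a6b but shared no stretch of 50 bases with it. The transcripts of Ms4a4b and Ms4a4c share 135 stretches of 50 bases, those of Ms4a6b and Ms4a6c share 117 and those of Ms4a6b and Ms4a6d share 40. A stretch was counted from each base in turn, so these overlap and are not separate pieces. The shared stretches were 7.73%, 5.85% and 2.31% of those of the gene with fewer in each pair. Reads from such stretches cannot be told apart, and how the authors' counting placed them is not given in the sources used here, so the levels of these 5 genes are uncertain to that extent.

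Both plus-strand pairs also share upstream sequence, and the 250 bases before each RefSeq start site (GRCm38.p6) are shown because the 2 genes of a pair differed in the cells that carried them. Runs of at least 12 bases found on the same strand in both genes of a pair are in capitals. Ms4a4c lies at chr19:11407411-11407660, Ms4a4b at chr19:11443308-11443557, Ms4a6c at chr19:11469118-11469367 and Ms4a6b at chr19:11518309-11518558, all on the plus strand.
Ms4a4c: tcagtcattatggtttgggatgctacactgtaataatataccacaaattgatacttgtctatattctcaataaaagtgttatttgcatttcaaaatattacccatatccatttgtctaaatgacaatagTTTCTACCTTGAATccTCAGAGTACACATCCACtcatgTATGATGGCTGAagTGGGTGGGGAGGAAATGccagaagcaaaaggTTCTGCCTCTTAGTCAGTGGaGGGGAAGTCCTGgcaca
Ms4a4b: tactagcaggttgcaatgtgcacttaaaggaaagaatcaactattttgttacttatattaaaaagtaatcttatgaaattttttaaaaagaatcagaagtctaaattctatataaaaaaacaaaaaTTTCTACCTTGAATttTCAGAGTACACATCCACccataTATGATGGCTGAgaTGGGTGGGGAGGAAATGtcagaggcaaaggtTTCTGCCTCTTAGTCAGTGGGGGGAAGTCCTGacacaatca
Ms4a6c: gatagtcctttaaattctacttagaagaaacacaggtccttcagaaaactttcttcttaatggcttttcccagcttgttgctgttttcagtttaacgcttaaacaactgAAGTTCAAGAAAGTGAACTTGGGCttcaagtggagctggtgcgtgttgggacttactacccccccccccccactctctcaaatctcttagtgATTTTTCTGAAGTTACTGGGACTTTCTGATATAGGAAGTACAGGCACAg
Ms4a6b: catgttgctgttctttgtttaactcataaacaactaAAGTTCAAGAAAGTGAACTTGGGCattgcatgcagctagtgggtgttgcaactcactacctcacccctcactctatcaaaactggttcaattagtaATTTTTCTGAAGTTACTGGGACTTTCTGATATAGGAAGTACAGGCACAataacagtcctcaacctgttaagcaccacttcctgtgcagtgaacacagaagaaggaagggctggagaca

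The shared runs covered 92 of 250 bases (36.8%) in Ms4a4c and Ms4a4b, with a longest run of 20 bases. They covered 72 of 250 bases (28.8%) in Ms4a6c and Ms4a6b, with a longest run of 48 bases. None of the 26 other pairs of the 8 promoter windows found for 7 members held such a run; RefSeq windows of Ms4a1 and Ms4a6d were not used here. The letters AGGAAG, the core of many sites bound by ETS factors such as PU.1, stood in the windows (here 250 bases before to 50 after the start, both strands) of Ms4a6b and Ms4a6c and in 35.4% of 32851 promoters of that length. The longer PU.1-type motif GAGGAAGT was in none of the 8 windows and in 3.20% of all promoters.

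Ms4a1 marked the B cell-like cells. Its level was 1567 CPM (1509 to 1626) there. T cell-like cells, the next highest of the 10 immune classes of at least 50 cells, held 17.5 CPM, a ratio of 89.7. In smaller classes, plasma cell-like cells (19) held 53.8 CPM and mature dendritic cell-like cells (35) 44.6 CPM. In the latter 46 of 48 counts came from 1 cell. Of the 93 Ms4a1 counts in T cell-like cells, 61 came from 1 cell that also carried at least 5 of 9 B cell markers, and the T cell-like level without it was 6.04 CPM. With every cell thinned to 5000 counts, which left out no kept cell, 71.4% of B cell-like cells had an Ms4a1 count (76.2% before thinning, at a median of 13209 counts). In fibroblast-like cells, which should lack it, 0.926% had one (6.03% before thinning, at a median of 45763 counts). The Ms4a1 level was 912, 2331, 1589, 1170 and 1119 CPM in the 5 hashtag populations with at least 10 B cell-like cells (A0302, A0303, A0305, A0308 and A0309), above the T cell-like level in 5 of 5.

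The other members in B cell-like cells were Ms4a4c at 96.8 CPM (82.8 to 112) and Ms4a6c at 78.6 CPM. Against T cell-like cells, 3 of 9 members were at least 2-fold higher in B cell-like cells (Ms4a1, Ms4a4c and Ms4a6c) where 12.7% of 7687 genes were, and 2 of 9 were lower (Ms4a4b and Ms4a6b) where 19.4% were. A gene counted here had to reach 20 CPM in 1 of both classes and differ 2-fold in CPM + 1; Ms4a4a, Ms4a6d, Ms4a7 and Ms4a14 did not reach 20 CPM in either. The median log2 difference was -0.88 over all 9 members and 2.14 over the 5 that reached 20 CPM, so its sign depends on the members counted; over the 7687 genes, which all reached 20 CPM, it was -0.09. The genes of the B cell receptor and co-receptor were also higher: 5 of 5 passed, with a median log2 difference of 6.58. Among them Cd79a, a signalling chain of the receptor, stood at 2020 against 8.83 CPM, and Cd81, a tetraspanin of the co-receptor, at 113 against 24.1 CPM.

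Ms4a4b was a member of NK and T cell-like cells, with 961 CPM (905 to 1019) and 693 CPM (671 to 716). Regulatory T cell-like cells held 127 CPM (112 to 143), gamma-delta T cell-like cells 54.9 CPM, type 2 dendritic cell-like cells 19.4 CPM and macrophage-like cells 1.64 CPM. Not all lymphocyte classes carried it: B cell-like cells held 14.2 CPM and group 2 innate lymphoid cell-like cells 1.31 CPM, the lowest immune class. In the gamma-delta T cell-like cells 53 of 108 Ms4a4b counts came from 1 cell. After thinning, 69.7% of NK cell-like, 53.9% of T cell-like and 11.2% of regulatory T cell-like cells had an Ms4a4b count, against 1.15% of fibroblast-like cells; before thinning the shares were 73.7%, 59.1%, 13.3% and 5.75%. Ms4a4b was thus highest in NK and T cell-like cells, with regulatory T cell-like cells next and below both.

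The order of the top 2 classes was not stable for Ms4a4b. NK cell-like cells stood at 1236, 867 and 353 CPM in the 3 hashtag populations that had at least 10 of them (A0304, A0308 and A0309), above T cell-like cells in 2 of 3. Ms4a4b in T cell-like cells ran from 368 to 955 CPM over the 9 populations, with a median of 598. Of the 9 members, 0 were at least 2-fold higher in NK than in T cell-like cells (13.3% of 7608 genes were) and 1, Ms4a6b, was lower (14.8% of genes were). The lower count was 2 without population A0304 and 3 without A0308 or A0310, and with finer clusters (resolution 2) the NK to T cell-like ratio of Ms4a4b was 0.970.

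Ms4a6b, a paralog reported in T cells and macrophages, had its highest level in T cell-like cells, at 379 CPM (363 to 396). Monocyte-like cells followed at 249 CPM (231 to 269), then regulatory T cell-like cells at 156, type 2 dendritic cell-like at 87.7, gamma-delta T cell-like at 76.7, macrophage-like at 75.7 and NK cell-like at 53.9 CPM. NK and T cell-like cells therefore carried like levels of Ms4a4b (1.39-fold apart) but not of Ms4a6b, which was lower in NK cell-like cells in 3 of 3 hashtag populations. In T cell-like cells Ms4a6b ran from 155 to 533 CPM over the 9 populations, with a median of 466, and in each of the 9 it was above the macrophage-like level of the same population.

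T cell-like cells were not uniform for these genes. They fell into 2 clusters, and the cluster led by Cd8a, Gzmk and Cd8b1 (125 cells) held 1060 CPM of Ms4a4b and 461.5 of Ms4a6b, against 497 and 335 CPM in the cluster led by Tcf7 and Klrc1 (220 cells). Split by coreceptor, a choice made after the data were seen, the 96 cells with at least 6 counts of Cd8a and none of Cd4 held 979 CPM of Ms4a4b (931 to 1028). The 21 cells with Cd4 and no Cd8a held 628 CPM (549 to 716). Ms4a6b ran the other way, with 439 CPM (407 to 473) in the Cd8a cells and 811 CPM (720 to 911) in the Cd4 cells.

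Regulatory T cell-like cells likewise fell into 2 clusters. The cluster led by Foxp3, Klrg1 and Tnfrsf4 (117 cells), genes of activated regulatory T cells, held 57.8 CPM of Ms4a4b and 88.2 of Ms4a6b. A smaller cluster of 26 cells, led by Tbc1d10c and Trac, held 451 CPM of Ms4a4b and 476 of Ms4a6b. Its leading genes included Foxp3 but also Klra6, Klra7 and Klre1, the last a marker on the NK cell list. Whether it is 1 kind of cell or a mixture was not tested. Across hashtag populations with at least 10 cells of both classes, T cell-like cells were above regulatory T cell-like cells in 7 of 7 for Ms4a4b and in 6 of 7 for Ms4a6b.

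Ms4a4c, the near copy of Ms4a4b, had another distribution. It stood at 185 CPM (173 to 197) in type 2 dendritic cell-like and 174 CPM (158 to 190) in monocyte-like cells, intervals that overlap; the ratio of 1.06 turned to 0.985, 0.981 and 0.891 without populations A0302, A0305 and A0307. B cell-like cells followed at 96.8, type 1 dendritic cell-like at 43.7, regulatory T cell-like at 32.8, T cell-like at 18.8 and macrophage-like cells at 3.04 CPM. Ms4a4c was low in NK cell-like cells (5.99 CPM), the class where Ms4a4b was highest, and Ms4a4b was low in monocyte-like cells (7.22 CPM). The plot of the paralogs by class shows both genes side by side.

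**Figure D1:**
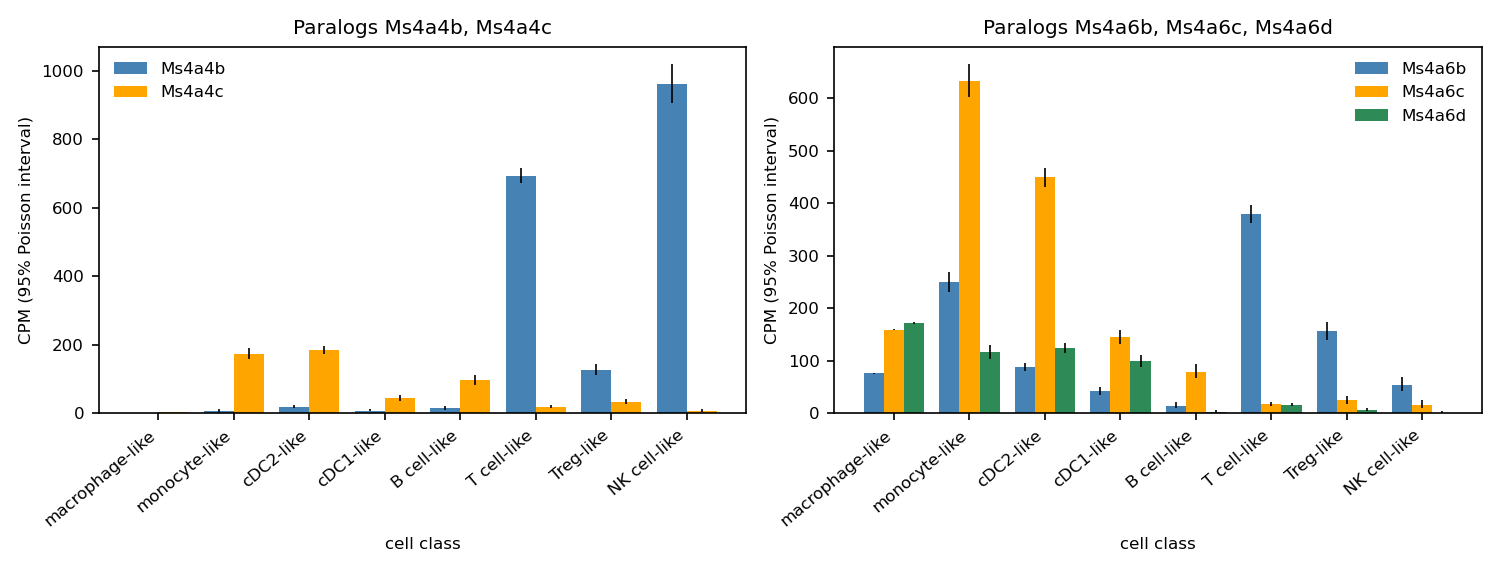
Bars give the level of the paralogs Ms4a4b and Ms4a4c (one panel) and Ms4a6b, Ms4a6c and Ms4a6d (other panel) in 8 immune classes, as CPM of summed counts with exact 95% Poisson intervals. Ms4a4b stands in NK and T cell-like cells (961 and 693 CPM) and Ms4a4c in type 2 dendritic and monocyte-like cells (185 and 174 CPM).

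Ms4a6c was highest in monocyte-like and type 2 dendritic cell-like cells. It reached 633 CPM (603 to 664) in monocyte-like and 449 CPM (431 to 467) in type 2 dendritic cell-like cells, against 159 CPM (158 to 160) in macrophage-like, 144 in type 1 dendritic cell-like and 78.6 in B cell-like cells. After thinning, 65.4% of monocyte-like, 51.2% of type 2 dendritic cell-like and 31.9% of macrophage-like cells had a count, against 1.18% of fibroblast-like cells; before thinning the shares were 75.3%, 60.4%, 53.4% and 9.80%. Ms4a6c was higher in type 2 dendritic cell-like than in macrophage-like cells in 8 of 8 hashtag populations, and higher in monocyte-like than in macrophage-like cells in 3 of 3. The monocyte-like values of these 3 populations (A0307, A0309 and A0310) were 205, 880 and 777 CPM.

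Against macrophage-like cells, 4 of 9 members were at least 2-fold higher in monocyte-like cells (Ms4a4a, Ms4a4c, Ms4a6b and Ms4a6c) where 15.6% of 7116 genes were, and 2 of 9 were lower (Ms4a7 and Ms4a14) where 12.5% were; the latter count was 1 without population A0308 or A0309. Ms4a4a was higher in monocyte-like cells in 1 of 3 hashtag populations. Without 1 cell its monocyte-like level was 18.2 CPM, under the 20 CPM needed, so its call rests on that cell. The median log2 difference was 1.58 over all 9 members, the same over the 7 that reached 20 CPM, and 0.18 over all genes tested. The 3 dendritic classes together against macrophage-like cells had 1 of 9 members higher (Ms4a4c; 13.5% of genes) and 2 lower (Ms4a7 and Ms4a14; 13.7% of genes). Without A0308 or A0309 the dendritic counts were 2 higher and 1 lower. Both comparisons over all populations placed Ms4a4c on one side and Ms4a7 and Ms4a14 on the other.

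Ms4a4a had low levels throughout: 32.3 CPM (25.8 to 39.9) in monocyte-like, 13.2 in type 2 dendritic cell-like and 10.2 in macrophage-like cells. Of the 85 monocyte-like counts, 38 came from 1 cell, and the level without it was 18.2 CPM. The ratio to the next class, 2.44, was 1.68 without the highest cell of each class, 1.28 without population A0303 and 1.63 without A0309, so the place of Ms4a4a in monocyte-like cells rests on few cells.

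Ms4a7, Ms4a6d and Ms4a14 had their highest immune level in macrophage-like cells. The macrophage-like level of Ms4a7 was 234 CPM (232 to 236) and the monocyte-like level 58.9 CPM (50.0 to 69.0), a ratio of 3.97. Its 155 monocyte-like counts lay in 6.17% of the cells, with 55 of them in 1 cell. In the 3 hashtag populations with at least 10 monocyte-like cells Ms4a7 ran from 0 to 239 CPM, with a median of 171. The macrophage-like range over 9 populations was 70.1 to 388 CPM, with a median of 143. These ranges overlap, so the pooled ratio does not describe each population. In type 1 and type 2 dendritic, B, regulatory T and group 2 innate lymphoid cell-like cells Ms4a7 was listed at 0, and the 32 counts in T cell-like cells were in 1 cell.

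The low end of Ms4a7 needs care. Its lowest value above 0 in the table was 6, where each other member reached 1, so a 0 may stand for up to 5 counts. If every 0 held 5 counts the level would be 267 CPM in macrophage-like, 203 in monocyte-like and 329 in T cell-like cells, because shallow cells would gain most. Ms4a7 was therefore also compared in cells of 10000 to 20000 counts by the share with at least 6 counts, a comparison added after the data were seen. Of 355 macrophage-like cells (median 14860 counts) 46, or 12.96% (9.65 to 16.9), passed. Of 171 T cell-like cells (median 14147 counts) 0 did, which allows a share of up to 1.75% by the rule of 3 counts in the total (the exact interval reaches 2.13%), and of 407 fibroblast-like cells (median 15184 counts), a class outside the blood lineage, 0.491% did. In cells of this range of total counts Ms4a7 was thus found in macrophage-like cells above the level of a class that should lack it; genes per cell were not matched.

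Ms4a6d stood at 171 CPM (170 to 173) in macrophage-like, 124 CPM (115 to 134) in type 2 dendritic cell-like, 116 in monocyte-like and 99.5 in type 1 dendritic cell-like cells, and at 16.3 CPM in T cell-like cells. It was a gene of the myeloid classes as a whole, with 1.38-fold between the first and the next (2.04-fold without population A0307). The macrophage-like level of Ms4a14 was 22.7 CPM (22.1 to 23.2); in monocyte-like cells it was 6.08 CPM, and 12 of the 16 counts there were in 1 cell. Against T cell-like cells, 4 of 9 members were at least 2-fold higher in macrophage-like cells (Ms4a6c, Ms4a6d, Ms4a7 and Ms4a14) where 19.3% of 7913 genes were, and 2 of 9 were lower (Ms4a4b and Ms4a6b) where 30.0% were. The median log2 difference was 1.96 over all 9 members, 3.19 over the 6 that reached 20 CPM and -0.32 over all genes tested. Each of these 6 differences had the same direction in 9 of 9 hashtag populations. In this comparison 5 of 6 genes of the TREM2 and Dectin-1 list and 6 of 6 of the Fc receptor list were higher in macrophage-like cells. Fcgr1, on the latter list, was also a marker used to name these cells. In NK against T cell-like cells 3 genes of each list were higher (13.3% of genes were), where 0 members were. Clec7a, which encodes Dectin-1, stood at 748 CPM in monocyte-like and 407 CPM in macrophage-like cells, a difference within 2-fold. Trem2, a lipid receptor of macrophages, was at least 2-fold lower in monocyte-like cells (146 against 1322 CPM).

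Over the 10 named immune classes of at least 50 cells, 4 of 9 members were at least 2-fold higher in one class than in the next (Ms4a1, Ms4a4a, Ms4a7 and Ms4a14), where 13.9% of 10187 genes were. The heat map of all members by class shows where each member was highest: Ms4a1 in B cell-like, Ms4a4b in NK cell-like, Ms4a6b in T cell-like, Ms4a4c in type 2 dendritic cell-like, Ms4a4a and Ms4a6c in monocyte-like, and Ms4a6d, Ms4a7 and Ms4a14 in macrophage-like cells. Ms4a6b crossed the lineages, and Ms4a4c and Ms4a6c were also found in B cell-like cells.

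**Figure D2:**
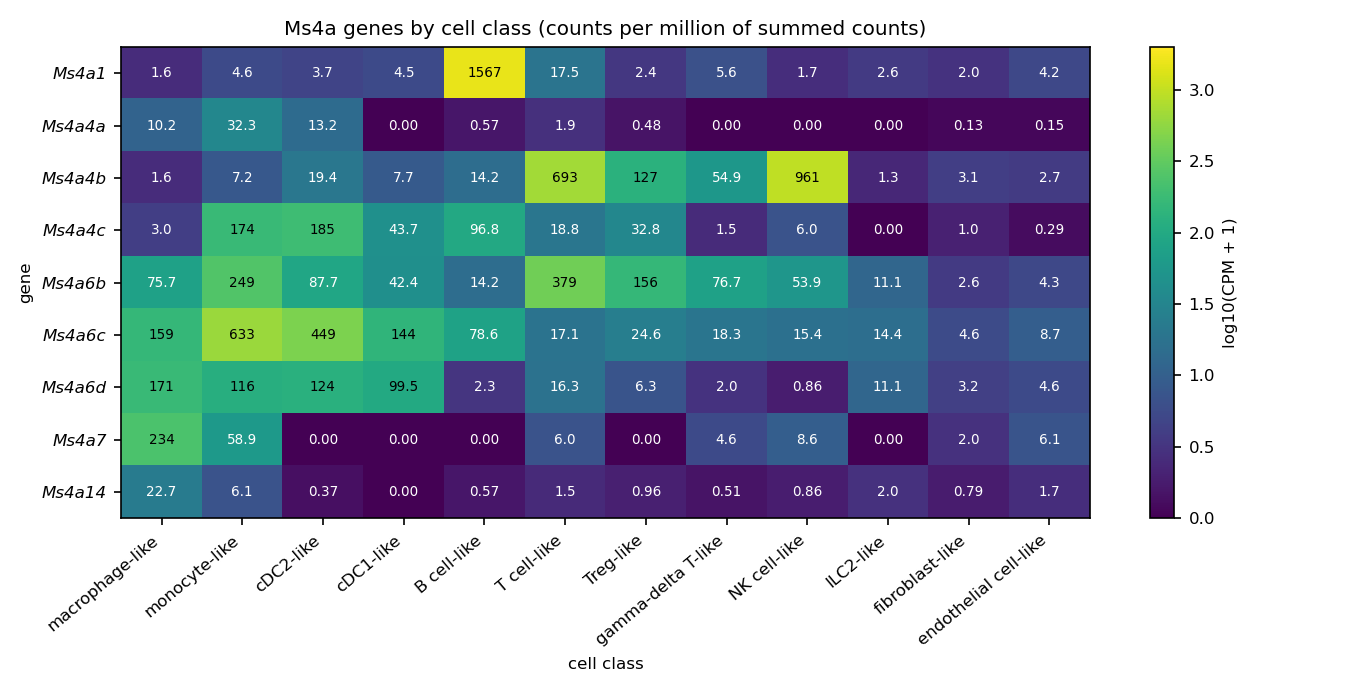
Heat map of the 9 members (rows) in 12 classes (columns), coloured by log10(CPM + 1) of summed counts with the CPM printed in each field. Ms4a1 reaches 1567 CPM in B cell-like cells and Ms4a7 234 CPM in macrophage-like cells, while Ms4a6b is spread over T cell-like, monocyte-like and macrophage-like cells.

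Within the macrophage-like cells, clustered again without the Ms4a genes, the members again differed from cluster to cluster. The 10 subclusters were named by marker lists: a Selenop and MHC class II state (568 cells), a resident state with Lyve1 and Timd4 (216), an interferon state with Cxcl9 (84), an F7 and Il1rn state (650), a Cpe and Hmga2 state (392), an antioxidant state with Gclm (287), a cycling state (294), 2 recruited states (441 and 389) and a subcluster led by Epor that took no name (210). The Selenop and MHC class II list was not particular to the subcluster named by it. Of its 6 markers, 5 were also at least 2-fold higher in the resident subcluster. In the interferon subcluster and in the recruited subcluster of 389 cells 4 of 6 were. The F7 and Il1rn subcluster also passed 3 of 4 markers of a list with Mfge8, Acp5 and Ctsk. Of the members, Ms4a1 and Ms4a4b did not reach 20 CPM in any of the 10 subclusters. In its highest subcluster a member was at least 2-fold above the other macrophage-like cells for 6 of the other 7, Ms4a6d being the exception (1.79-fold), where 33.1% of 8446 genes were.

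The Selenop and MHC class II subcluster held the highest levels of Ms4a6b, Ms4a6d, Ms4a7 and Ms4a14 among the 10. Ms4a7 was at 585 CPM there, Ms4a6b at 275, Ms4a6c at 495, Ms4a6d at 280, Ms4a14 at 62.1 and Ms4a4a at 40.1 CPM. Against the other macrophage-like cells, 5 of 9 members were at least 2-fold higher: Ms4a4a 6.68-fold, Ms4a6b 5.73-fold, Ms4a6c 4.41-fold, Ms4a14 3.62-fold and Ms4a7 3.16-fold, where 3.0% of 6496 genes were, and 0 were lower (3.28% of genes). In each of the 6 hashtag populations with at least 10 cells of this subcluster and of the rest, all 6 of these genes were higher in it: Ms4a7 ran from 348 to 793 CPM (median 524) against 88.9 to 338 in the rest, and Ms4a6b had a median of 277 CPM and a lowest value of 104, above its range of 23.9 to 83.4 in the rest. The ranges did not overlap for either gene, though for Ms4a7 the nearest values were 348 and 338 CPM. How many of all genes had ranges apart was not counted. This subcluster was also led by haemoglobin genes (Hbb-bs and Hba-a1), whose counts in macrophage-like cells came from population A0310 (278 CPM, and 0 in the other 8); their part in the result was not tested, and the members were higher in the 5 other populations too.

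In the resident subcluster Ms4a4a had its highest level, 54.5 CPM, and Ms4a6b reached 262 and Ms4a6c 343 CPM; these 3 members were at least 2-fold higher than in the other macrophage-like cells (5.97-, 3.66- and 2.22-fold), where 6.84% of genes were, and 0 were lower (8.63%). Each was higher in 6 of 6 hashtag populations, with Ms4a6b at 210 to 454 CPM against 21.5 to 52.4. Ms4a7, at 180 CPM, was higher in 4 of 6. The resident state therefore shared Ms4a4a, Ms4a6b and Ms4a6c with the Selenop and MHC class II state, but not the high level of Ms4a7. The unnamed subcluster led by Epor had 4 members higher (Ms4a4a, Ms4a6b, Ms4a6c and Ms4a7, the last at 507 CPM; 1.75% of genes), each in 6 of 6 populations, and 0 lower (3.77%).

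The interferon subcluster had the highest level of Ms4a4c among macrophage-like cells, 64.6 CPM against 1.89 CPM in the rest, a ratio of 34.2; the resident subcluster came next at 5.62 CPM. It held 355 of the Ms4a4c counts, of which 57.7% were in 5 cells, and the Selenop and MHC class II subcluster held 176. Ms4a6c had its highest level there (642 CPM), and Ms4a7 (535 CPM) and Ms4a6b (204 CPM) were also at least 2-fold higher, so that 4 of 9 members were, where 6.21% of genes were, and 0 were lower (4.90%). Of its 84 cells, 81.0% carried hashtag A0308. Within A0308, the one population with at least 10 of its cells, Ms4a4c was at 40.5 CPM against 4.42 in the other macrophage-like cells, and Ms4a6c at 608 against 201. Ms4a7 was at 505 against 375 CPM there and Ms4a6b at 196 against 112, so neither was 2-fold higher within that population. In the 16 cells from the other populations Ms4a4c was at 171 CPM.

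At the other end stood one recruited subcluster, of 389 cells with Il1b, Ifitm6 and Plbd1 among its leading genes. Ms4a7 was at 13.6 CPM there, a ratio of 0.05 to the other macrophage-like cells, Ms4a14 at 0.43 CPM (0.02), Ms4a6b at 17.9 (0.22) and Ms4a6d at 38.2 (0.21). These 4 of 9 members were at least 2-fold lower, where 9.00% of genes were, and 0 were higher (5.32%). Ms4a7 lay between 0 and 37.8 CPM in this subcluster against 111 to 222 in the rest over 7 hashtag populations. Ms4a6c, at 89.3 CPM, was not 2-fold lower. The other recruited subcluster, whose cells were shallow (median 12449 counts), had 2 members lower, Ms4a6d at 48.9 and Ms4a7 at 107 CPM (8.20% of genes) and 0 higher (17.6%). Ms4a7 was lower there in 9 of 9 hashtag populations, but this call does not stand if each 0 held 5 counts: the level would then be 393 CPM against 263 in the other macrophage-like cells.

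In the antioxidant subcluster Ms4a6d was not lower when all populations were pooled, unlike its paralogs. Ms4a6d stood at 234.5 CPM there, 1.45-fold the other macrophage-like cells, whereas Ms4a6b was at 16.2 and Ms4a6c at 41.1 CPM, in both the lowest of the 10 subclusters. Ms4a6b, Ms4a6c, Ms4a7 and Ms4a14 were at least 2-fold lower than in the other macrophage-like cells (4 of 9 members; 5.28% of genes), and 0 were higher (1.89%). Hashtag A0310 gave 86.4% of this subcluster, and 39 of its cells were from other populations. In those 39 cells Ms4a6d was at 172 CPM, Ms4a6b at 3.19 and Ms4a6c at 12.1 CPM. Within populations, Ms4a6d was higher than in the other macrophage-like cells in 1 of 3, whereas Ms4a6b and Ms4a6c were lower in 3 of 3. The F7 and Il1rn subcluster had 3 members lower (Ms4a6b, Ms4a6c and Ms4a14; 4.01% of genes) and 0 higher (0.677%). The cycling subcluster had 1 lower (Ms4a6b; 1.56%) and 0 higher (7.46%), and the Cpe and Hmga2 subcluster 0 lower (2.61%) and 0 higher (1.59%). In the last, Ms4a7 was at 337 CPM, 1.59-fold the rest when pooled, but it was higher in 1 of 3 hashtag populations.

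**Figure D3:**
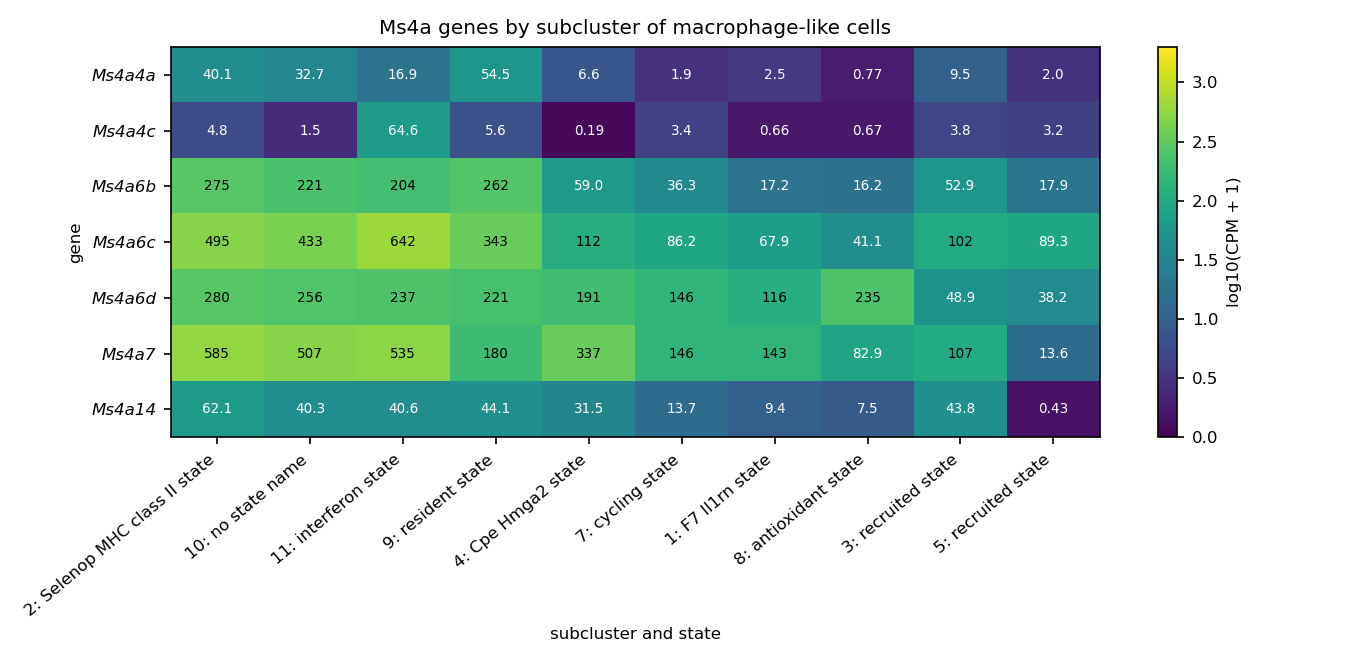
Heat map of 7 members (rows) in the 10 macrophage-like subclusters (columns), coloured by log10(CPM + 1) of summed counts with the CPM printed. The Selenop and MHC class II subcluster holds 585 CPM of Ms4a7 and 275 of Ms4a6b; the recruited subcluster of 389 cells holds 13.6 and 17.9 CPM.

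The paralogs Ms4a6b and Ms4a6c followed each other over the 10 subclusters (Pearson's r 0.95 of log2 levels, which share 1 library and some of their sequence), and Ms4a7 and Ms4a14 less closely (0.88). Over 19 profiles, the named immune classes and the subclusters, r was 0.45 for Ms4a6b and Ms4a6c and 0.91 for Ms4a7 and Ms4a14. The members also met in the same cells. With 3531 macrophage-like cells thinned to 5000 counts, 449 had both Ms4a6b and Ms4a6c where independence would give 209. All 10 pairs of the 5 members at 20 CPM or more were found together more often than independence would give, from 1.43 times (Ms4a6c and Ms4a6d) to 2.15 times (Ms4a6b and Ms4a6c). Pairs of other genes were not counted, so whether this is particular to the family was not tested. Of these cells 38.3% had none of the 5, 26.1% had 1 and 1.19% had all 5.

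Across the 9 hashtag populations, the level of the macrophage members in macrophage-like cells differed. Ms4a7 was at 70.1, 98.8, 106, 105, 151, 143, 388, 343 and 218 CPM in A0301, A0302, A0303, A0304, A0305, A0307, A0308, A0309 and A0310. The 3 highest populations were A0308, A0309 and A0310. Ms4a6b ran from 29.0 (A0304) to 120 CPM (A0308) with a median of 59.4, Ms4a6c from 87.5 (A0304) to 240 (A0308) with a median of 133, and Ms4a14 from 9.12 (A0307) to 37.6 (A0308) with a median of 17.2. Ms4a6d ran from 99.8 (A0303) to 257 CPM (A0310) with a median of 130, so its highest population was another one than for the other 4. The highest population was 5.53-fold above the lowest for Ms4a7, 4.15-fold for Ms4a6b, 4.12-fold for Ms4a14, 2.75-fold for Ms4a6c and 2.58-fold for Ms4a6d. All 5 passed 2-fold, as did 39.8% of 6137 genes. By the mean of per-cell CPM the ratio was 13.96 for Ms4a7, whose lowest population was then at 28.9 CPM, and 4.77 for Ms4a6d, and the highest population of Ms4a6b was A0309.

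The populations differed in which macrophage subclusters they held. The low-Ms4a7 recruited subcluster of 389 cells made up 31.3%, 32.4% and 39.3% of macrophage-like cells in A0301, A0302 and A0303, from 16.3% to 19.0% in A0304, A0305 and A0307, and from 1.1% to 2.4% in A0308, A0309 and A0310. The Selenop and MHC class II subcluster ran from 2.8% (A0302) to 28.5% (A0308), and the antioxidant subcluster was 42.4% of A0310. When each population was given the same subcluster make-up, the highest-to-lowest ratio was 3.12 for Ms4a7, 2.39 for Ms4a6b, 1.84 for Ms4a6c, 2.06 for Ms4a6d and 7.93 for Ms4a14. The values of A0301, A0302 and A0303 then rest on few cells per subcluster. In each population but A0308 the interferon subcluster had 1 to 3 cells. A0310 had 0 resident cells, so its make-up was that of the other subclusters. The highest population at this make-up was A0301 for Ms4a6c and Ms4a6d, A0309 for Ms4a6b and A0310 for Ms4a7 and Ms4a14. Median counts of macrophage-like cells ran from 25406 (A0301) to 94213 (A0310), and the summed level of dissociation-response genes from 6427 to 11028 CPM; their part in the differences was not tested.

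**Figure D4:**
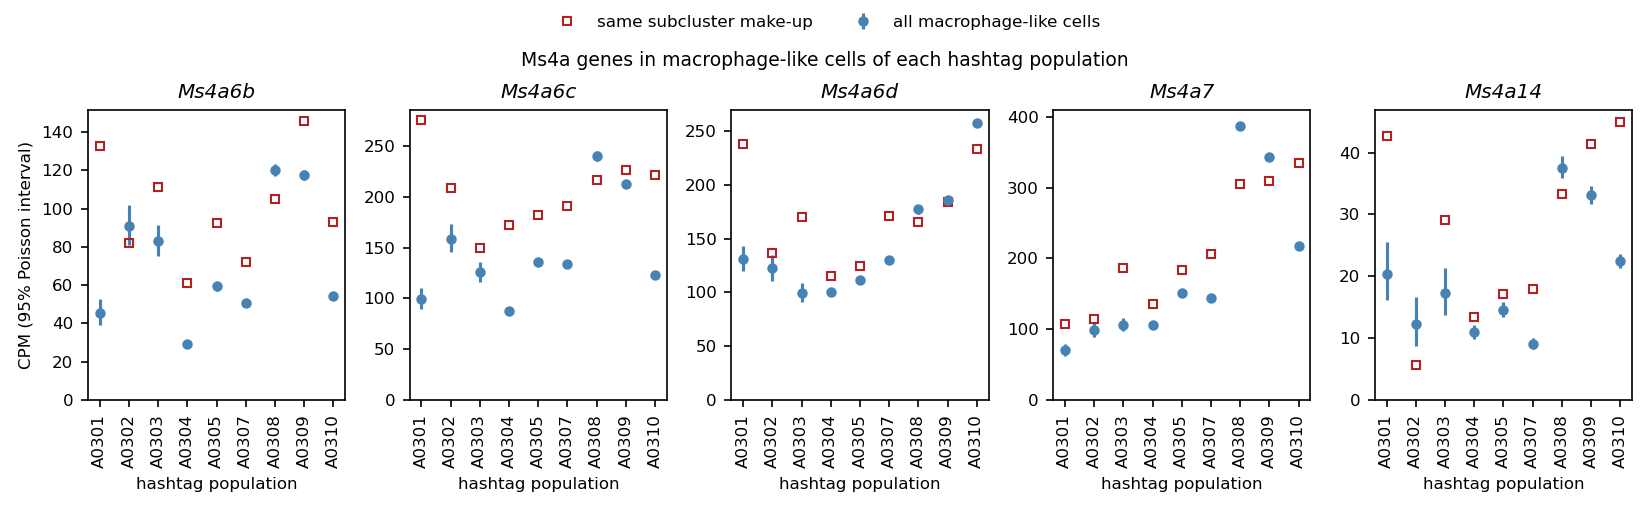
Level (CPM) of 5 members in macrophage-like cells of the 9 hashtag populations. Blue points are all macrophage-like cells with exact 95% Poisson intervals, red squares the same populations at one subcluster make-up. For A0310 that make-up leaves out the resident subcluster, of which it had no cells. Ms4a7 ranges from 70.1 CPM in A0301 to 388 CPM in A0308, and Ms4a6d is highest in A0310 (257 CPM).

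The genes whose levels over the 19 profiles were most like each member differed by member. For Ms4a1 they were H3f3aos, Fcmr and Mzb1 (r of 0.95; Spearman's rho was 0.675, 0.003 and 0.002, so the match of Fcmr and Mzb1 is not one of ranks), the last of these a gene of antibody-secreting B lineage cells. Ms4a4b was most like Samd3, Sh2d1a and Klrb1f (0.924 to 0.929), of which Sh2d1a encodes the adaptor SAP of T and NK cells. Ms4a6c was most like Lst1, Ly86 and Ctsc (0.892 to 0.917), and Ms4a4a like Ctsc, Lst1 and Clec4a1 (0.860 to 0.882), so these 2 members shared Lst1 and Ctsc. Ms4a7 was most like Cd300ld4, Osbpl11 and Samd4 (0.942 to 0.959), and Ms4a14 like Samd4 and Stab1 (0.947 and 0.932). Ms4a6d was like Vwa5a and Cmtm3 (0.953 and 0.940), and Ms4a4c like Plac8, Fam49b and Tent5c (0.806 to 0.830). Ms4a6b had the weakest matches, Parp14, Xpo7 and Rgs5 (0.741 to 0.765). These are from the 3 highest of 10661 genes for each member, over 19 points of 1 pool.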

How the data were processed

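The authors deposited whole-number counts of genes and of hashtags for each cell barcode. Tools named in the submitters' processing notes are cutadapt 2.10, Bowtie2 2.4.2 and R 3.6.3, with the GRCm38 build. The counter, the calling of cells, the assignment of hashtags and whether a count is a read or a molecule were not given in the sources used here. In the table, the lowest value above 0 was 5 or more for 389 of 18166 genes seen in over 100 cells, so small values of some genes are missing.

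Of 12040 cell columns, 12 without a hashtag were not used. Filters of 200 genes or more and up to 25% mitochondrial counts passed 10775 of 12028 cells, and 254 hashtag doublets and 236 Scrublet doublets (2.19%; 1 cell in both) were removed. Hashtags came from the column prefix; an own rule on the hashtag counts gave the same tag in 7611 of 7620 cells it called. Scanpy 1.11.5 clustered the cells (2000 variable genes, 30 components, 15 neighbours, Leiden resolution 1, seed 7) without Ms4a genes and Tmem176a and Tmem176b. A cluster took a name where at least 60% of a marker list, and 3 markers, reached 20 CPM and 2-fold. A macrophage or other immune cluster stayed unnamed where another lineage reached 70%. A shallow one without a marker of its class among its leading genes would also stay unnamed. Clusters outside these compartments took their best class without these 2 rules. These thresholds were set after the clusters were seen.

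Levels are CPM of summed counts. With 1 pool there is no replicate, so no test was run and a call is a 2-fold ratio of CPM + 1 with 20 CPM in 1 of both classes; the calling step was tested on simulated data. Alternatives changed the mean, thinning, filters, resolution, doublets, naming, depth and hashtags included. Sequences are from RefSeq (GRCm38.p6) and GENCODE M21; alignments used Biopython 1.88. The text names all members, the fixed lists by count with examples, and the 3 most correlated genes per member, of which some are not reported here. Members and lists were chosen with earlier results of these data known.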

Additional observations from a re-analysis of the deposited data

How the results depend on the processing

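Over the alternatives, 321 values of single members kept direction and call or moved within their error, 75 moved, 9 reversed, 7 fell under 2-fold and 3 rose over it; of the counts, 218 kept within 1.5 times, 14 rose and 7 fell. The close orders reversed: the type 2 dendritic to monocyte-like ratio of Ms4a4c was 0.478 with cells gated one by one on markers, 0.961 at resolution 2, 0.825 with doublets kept and 0.891 (without A0307) to 1.34 (without A0303) on leaving out 1 hashtag population, also under 1 without A0302 or A0305. The T to monocyte-like ratio of Ms4a6b was 0.872 under the gate, and the NK to T cell-like ratio of Ms4a4b 0.970 at resolution 2 and 0.953 at 10% mitochondrial counts. Members lower in NK than in T cell-like cells were 3 by the mean of per-cell CPM and by thinned cells, 2 under the gate and 1 to 3 leaving out 1 hashtag population (2 without A0304, 3 without A0308 or A0310). Members lower in B than in T cell-like cells were 4 under the gate. With 5 counts in place of each Ms4a7 zero, 1 member was lower in monocyte-like and 1 in dendritic than in macrophage-like cells, as on leaving out A0308 or A0309 (range over all populations 1 to 2), and the Ms4a7 macrophage to monocyte-like ratio was 1.31. Members higher in dendritic cell-like cells were 2 at 10% mitochondrial counts and 1 to 2 leaving out 1 population (2 without A0308 or A0309). With a floor of 5 CPM, 4 members were lower than T cell-like cells in macrophage-like, in B cell-like and in NK cell-like cells, and 3 were higher in dendritic cell-like cells. Spearman's rho named 9 of the 27 most like genes. The Ms4a4a ratio of monocyte-like to the next class fell to 1.36 by per-cell mean, 1.28 without A0303 and 1.63 without A0309. Marker-gated monocyte-like cells held no Ms4a7 counts, so that ratio has no value. At resolution 2 the Ms4a7-highest macrophage subcluster was an unnamed one (3.03-fold) and at resolution 0.5 the interferon one (2.23-fold). Values of Ms4a7 under 6 are missing, which limits what its zeros show.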

Other observations

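Other genes of the family that were not members had their own cells. Ms4a4d, which lies between Ms4a6b and Ms4a6d on chromosome 19, was a gene of fibroblast-like cells (239 CPM) and mesothelial-like cells (53.3 CPM), and was at most 8.1 CPM in the other classes of at least 50 cells. Ms4a8a stood at 63.5 CPM in monocyte-like and 16.2 CPM in macrophage-like cells, and within the latter at 95.6 and 63.5 CPM in the 2 recruited subclusters and 60.8 CPM in the resident one, against 1.5 to 14.4 CPM in the others. The related 4-pass genes Tmem176a and Tmem176b were highest in gamma-delta T cell-like cells (1434 and 1619 CPM), followed by mature dendritic cell-like (869 and 901), and were low in NK cell-like cells (12.8 and 5.99 CPM).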
